A study of Mus musculus with 4 samples.

Results

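Imprinted genes are expressed from the copy inherited from one parent only. In mammals most of them lie in clusters, and each cluster is governed by a control region whose cytosines were methylated in the egg or in the sperm and keep that mark on one parental copy through development. TET dioxygenases, which oxidise 5-methylcytosine, take part in erasing these marks in the germline, and the binding of CTCF and of zinc finger proteins such as ZFP57 to the control regions depends on their methylation. Chromatin accessibility at 34 imprinted mouse genes in 17 clusters was compared between osteoblasts with and without TET enzymes. A region of the count table was assigned to each gene that it overlapped, with the 2 kb upstream of the start included, and 280 of the 255864 regions did so. All 34 genes had a region, as had 31570 of the 55413 annotated genes.

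The accessibility was measured by ATAC-seq, in which a transposase cuts open DNA, in primary osteoblasts, the bone-forming cells, of 3-day-old C57BL/6 mice. The WT mice were labelled wild type, and whether they carried floxed alleles without Cre was not stated. The TCKO mice carried the Prx1-Cre transgene and were fl/fl for each of *Tet1*, *Tet2* and *Tet3*. Per the labels there were 2 samples per genotype, although a protocol text spoke of 3 repeats, and the table held 1 merged column per genotype, so each difference below compares 2 merged libraries, has no replicate check and was not tested. Prx1-Cre is active in mesenchyme of the limb and part of the skull, and the cells came from enzyme digests of parietal bone, so a fraction of undeleted or other cells may be present. In such bulk samples fewer cells with an open site and less opening per cell cannot be told apart. The mice were of one inbred strain and the counts sum both parental copies, so the maternal and paternal alleles could not be separated.

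The merged WT library held 56898657 counts and the merged TCKO library 34608167. TCKO counts were multiplied by 1.64 to match the WT total, 1 count was added to each side, and the log2 ratio of TCKO over WT is given with a 95% Wilson interval that covers counting error only. The median ratio of all regions was then 0.06 and that of all gene loci −0.02. The regions over *Tet1*, *Tet2* and *Tet3* had ratios of −0.16, −0.22 and −0.14 for their summed counts, which is no check of the deletion, since the regions need not cover the deleted exons. All 8 osteoblast marker genes had regions, from *Runx2* and *Sp7* to *Col1a1* and *Bglap*, and their median locus ratio was −0.12, with 6 of 8 below 0. Over 8 macrophage or osteoclast markers the median was 0.02, with 4 below 0 and 6612 WT and 4331 TCKO counts in all. Over 7 endothelial markers it was 0.46, with 1 below 0 (*Erg*, −0.40) and 15848 and 9515 counts. Of 7 skeletal muscle markers 5 had regions, with a median of 0.10, 1 below 0 and 2014 and 1391 counts, and *Acta1* and *Myog* had none. No marker locus differed 2-fold, and the part of other cells in the results below was not tested.

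The control region of the *H19* and *Igf2* cluster lies before *H19*, a long noncoding RNA gene read from the maternal copy. It is methylated on the paternal copy, and CTCF bound to the maternal copy insulates *Igf2*, which encodes insulin-like growth factor 2, from shared enhancers. A CTCF pattern (CCGC, any 2 bases, GG, any 1 base, then GGCAG, on either strand) was searched in all regions of the table. The nearest region before *H19* that held it was chr7:142580260-142580824 (GRCm38), and its neighbour chr7:142581709-142582067, named after its values were seen, held it as well. Each of these regions held 2 matches, and of the 255864 regions only 3 held at least 2, while 164 (0.064%) held at least 1. The letters follow the form of the site known from this stretch, so other CTCF sites need not carry them. The 4 matches are shown with 20 bases on each side, on the minus strand, from which *H19* is read, with the match in capitals. They lie at chr7:142580309-142580322, chr7:142580764-142580777, chr7:142581790-142581803 and chr7:142582034-142582047, in the order printed.
2166 bp before H19: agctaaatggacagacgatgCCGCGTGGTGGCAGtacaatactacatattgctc
2621 bp before H19: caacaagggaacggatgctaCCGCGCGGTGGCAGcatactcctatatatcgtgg
3647 bp before H19: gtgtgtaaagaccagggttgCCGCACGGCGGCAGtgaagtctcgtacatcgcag
3891 bp before H19: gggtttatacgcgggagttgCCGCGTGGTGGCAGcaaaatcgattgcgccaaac

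Both regions were accessible in both genotypes and, with total counts as the scale, neither was lower in TCKO. Over the nearer one lay 382 WT and 268 TCKO counts, a ratio of 0.21 (interval −0.02 to 0.43). The farther one held 245 and 196 counts, a ratio of 0.39 (0.12 to 0.67). Peaks were called over both in each genotype, with fold enrichments over the local background of 3.95 in WT and 4.12 in TCKO at the nearer region and of 4.99 and 5.02 at the farther one. Summed, the pair held 627 and 464 counts, a ratio of 0.28 (0.11 to 0.46), which stayed above 0 with TMM (0.21), DESeq2 size factors (0.22) and a loess fit (0.26) but was −0.43 without scaling and −0.33 with the peak caller's background as the scale. Over all regions the median was −0.64 and −0.54 under those scales. They apply the same factor to every region, so the place of the pair above that median is nearly fixed and adds no support. These regions lie beyond the 2 kb before *H19* and are not among its member regions.

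The *H19* promoter region, 280 and 160 counts, had a ratio of −0.09 (−0.37 to 0.19), and the 5 regions of *Igf2* summed to 1269 and 761 counts, a ratio of −0.02 (−0.15 to 0.11). Both intervals hold 0. Counting all 8 regions within 25 kb of *H19* turned its ratio to 0.31. Among the regions between *H19* and *Igf2*, which were looked through after their values were seen, chr7:142599933-142600425 stood out, 22036 bp before *H19*, with 172 counts in WT and 43 in TCKO (ratio −1.27, −1.76 to −0.80). It was called as a peak in WT only. Farther out, 47015 bp before *H19*, chr7:142625101-142625214 moved the opposite way, with 26 counts in WT and 47 in TCKO (1.54, 0.89 to 2.26), and was called in TCKO only.

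**Figure D1:**
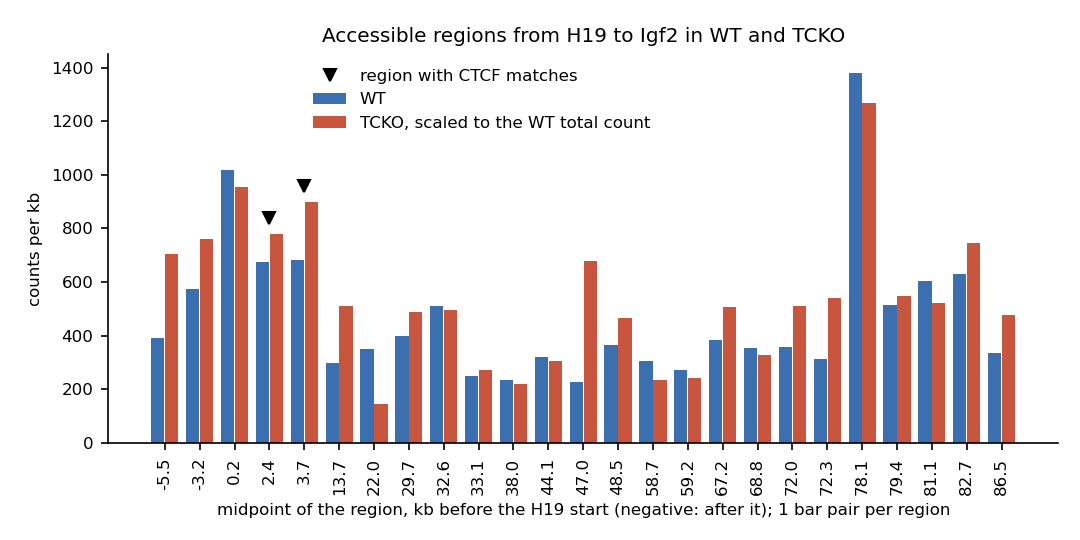
Counts per kb (vertical axis) of each accessible region from 5.5 kb after the *H19* start to *Igf2*, in WT and in TCKO scaled to the WT total count, with 1 pair of bars per region in order of distance. The 2 regions marked by triangles hold the 4 CTCF matches and are higher in scaled TCKO. So are some neighbours without a match, while the region at 22.0 kb is lower.

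Across the 34 genes the regions were shifted slightly towards lower accessibility in TCKO, and few moved far. Of the 280 member regions 169 (60.4%) had a ratio below 0, against 45.4% of all regions. The member regions were richer in promoters (77 of 280, against 35165 of 255864) and held more WT counts (median 136.5, against 86). Over all promoter regions the share below 0 was 55.9%. Member regions were also picked by gene overlap, while the full set was not limited to genes. Of all gene loci, each the sum of its regions, 52.7% were below 0, with a median of −0.02. Whether member regions differ from the single regions of all genes was not tested. The median of the member regions was −0.08, which is −0.15 relative to the median of all regions. This difference lay between −0.09 and −0.18 under every alternative setting. TMM, DESeq2 size factors, no scaling and the peak caller's background shift all regions alike, so they could hardly change it. The loess fit gave −0.16 and removing the median of GC bins −0.09. At least 2-fold lower in TCKO were 19 member regions (6.79%), beside 4.51% of all regions. At least 2-fold higher were 8 (2.86%), beside 12.3% of all regions. Without scaling 89 were lower and 0 higher, beside 25.6% and 3.17% of all regions, and with the peak caller's background 72 and 0, beside 19.9% and 3.91%. Summed, the member regions came to 91445 WT and 50345 TCKO counts, a ratio of −0.14 (−0.16 to −0.13). Peaks were called in both genotypes over 148 of them, in WT only over 117 (41.8%, against 33.0% of all regions) and in TCKO only over 15 (5.36%, against 10.2%).

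The shift was not large at any single gene. Of the 34 loci 24 (70.6%) had a ratio below 0, beside 52.7% of all loci, and their median was −0.09. With total counts as the scale none reached 2-fold in either direction, where 1.08% of all loci were 2-fold lower and 4.15% were 2-fold higher. Without scaling *Mcts2* (−1.10), *Cdkn1c* (−1.10) and *Grb10* (−1.01) were past 2-fold lower. On that scale 25.6% of all regions were 2-fold lower too, and the share of all loci is not given. Of the member regions 23 were counted at 2 or more loci, so the loci are not all separate. The interval lay below 0 at 14 loci, above 0 at 5 and held 0 at 15. The lowest were *Mcts2* (−0.39) and *Cdkn1c* (−0.39), and the highest were *Magel2* (0.57) and *Mkrn3* (0.56). With 25 kb on either side counted as well, these 4 stood at −0.28, −0.02, 0.32 and 0.03. All 34 loci were below 0 without scaling and with the peak caller's background. These scales shift all regions alike and bring their median to −0.64 and −0.54. The place of a locus relative to that median is thus nearly fixed. Without scaling 9 of the 10 loci with a positive ratio lay above that median, *Magel2* and *Mkrn3* at −0.15, *Ascl2* at −0.44, *Sgce* at −0.47 and *Snrpn* at −0.48 among them, and *Zrsr1* (−0.68) lay below it. Under the loess fit *Zrsr1* and *Phlda2* turned negative and *Zim1*, *Peg10*, *Ube3a* and *Impact* positive, and with the median of GC bins removed *Igf2*, *Peg10* and *Meg3* turned positive.

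**Figure D2:**
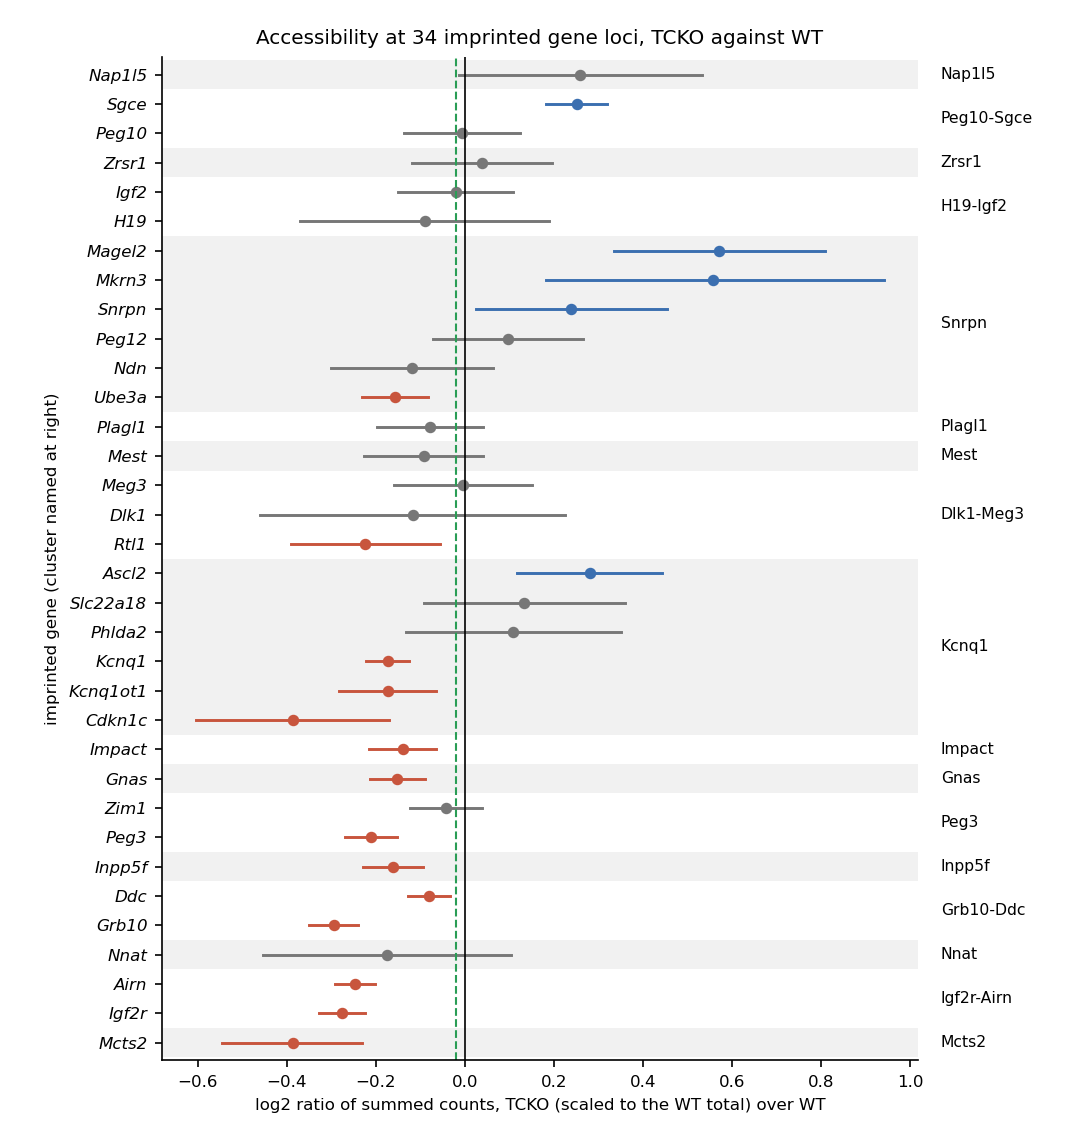
Log2 ratio of the summed counts (horizontal axis, TCKO scaled to the WT total over WT) with its 95% counting interval for each of the 34 imprinted genes, ordered by cluster ratio, with shading to part the clusters and the dashed line at the median of all gene loci. Red intervals lie below 0 (14 genes), blue ones above 0 (5 genes) and grey ones hold 0, and no gene reaches a ratio of 1 or −1 with total counts as the scale.

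Promoters and gene bodies differed in spread. The 77 member regions with a midpoint within 1 kb of a transcript start had a median of −0.06, with 1 at least 2-fold lower and 1 higher. All 35165 promoter regions had a median of −0.05, with 2.27% lower and 5.1% higher. The 172 intronic regions had a median of −0.10, with 18 at least 2-fold lower and 5 higher, where the regions outside promoters as a whole had a median of 0.10, 4.87% lower and 13.4% higher. The latter set was not limited to introns or to genes. The 28 exonic regions had a median of −0.12, with none at least 2-fold lower and 2 higher.

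At 15 of the genes the promoter is known as a germline differentially methylated region, methylated on the copy from the egg. These are *Kcnq1ot1*, *Peg3*, *Mest*, *Peg10*, *Plagl1*, *Grb10*, *Snrpn*, *Airn*, *Gnas*, *Nnat*, *Impact*, *Nap1l5*, *Zrsr1*, *Mcts2* and *Inpp5f*. At the promoter region with most counts, 12 of the 15 had a ratio below 0, with a median of −0.07 and a range from −0.39 to 0.16. The 17 such regions of the other genes had 11 below 0, a median of −0.09 and a wider range, from −0.64 to 0.94. These 17 held fewer counts, with a median of 333 in WT against 759 for the 15. The ends of their range were thin regions, at *Slc22a18* (90 and 35 counts) and *Mkrn3* (64 and 75). Of all promoter regions 55.9% were below 0, and both median ratios lie near theirs. Several of these genes have further starts (*Inpp5f*, *Grb10*, *Gnas*), so the region with most counts need not be the methylated one, and methylation was not analysed here. No region within 1 kb of a start was found for *Kcnq1* and *Rtl1*.

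ZFP57, which keeps the mark in place, binds the hexamer TGCCGC when it is methylated. In 300 bases around the WT summit the hexamer, on either strand, was found in 6 of the 15 regions (40.0%), in 3 of the 17 others (17.6%), in 14.1% of all promoter regions and in 4.70% of all regions. The hexamer holds a CpG, and the median number of CpG per window was 16, 13, 9 and 3 in the same order. At least 2 hexamers stood in 4 of the 15 and in 2.04% of all promoter regions. The CTCF pattern was found in none of these 32 windows. Shown are 4 of the windows, in the direction of the gene with the hexamers in capitals, because they carry hexamers and include the lowest (*Mcts2*) and the highest (*Nap1l5*) ratio of the 15. They are chr2:152686719-152687018 (plus strand) for *Mcts2*, chr6:58906990-58907289 (minus) for *Nap1l5*, chr7:60004067-60004366 (minus) for *Snrpn* and chr10:13090566-13090865 (plus) for *Plagl1*.
Mcts2: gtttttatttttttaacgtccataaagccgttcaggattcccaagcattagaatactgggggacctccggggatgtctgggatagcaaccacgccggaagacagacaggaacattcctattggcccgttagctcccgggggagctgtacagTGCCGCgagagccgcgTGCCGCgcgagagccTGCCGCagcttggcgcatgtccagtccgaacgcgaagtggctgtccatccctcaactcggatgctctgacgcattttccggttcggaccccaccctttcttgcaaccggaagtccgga
Nap1l5: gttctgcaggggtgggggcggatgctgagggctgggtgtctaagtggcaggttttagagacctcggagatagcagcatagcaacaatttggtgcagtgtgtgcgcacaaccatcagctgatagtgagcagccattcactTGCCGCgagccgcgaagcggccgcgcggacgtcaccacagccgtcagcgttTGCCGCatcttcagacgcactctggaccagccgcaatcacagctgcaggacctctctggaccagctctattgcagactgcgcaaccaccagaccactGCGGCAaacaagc
Snrpn: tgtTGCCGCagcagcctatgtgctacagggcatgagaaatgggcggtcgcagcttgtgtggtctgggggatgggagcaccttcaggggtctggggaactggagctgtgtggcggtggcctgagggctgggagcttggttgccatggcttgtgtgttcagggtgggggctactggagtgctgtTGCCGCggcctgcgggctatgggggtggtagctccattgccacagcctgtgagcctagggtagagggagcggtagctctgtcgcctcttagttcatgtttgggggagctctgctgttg
Plagl1: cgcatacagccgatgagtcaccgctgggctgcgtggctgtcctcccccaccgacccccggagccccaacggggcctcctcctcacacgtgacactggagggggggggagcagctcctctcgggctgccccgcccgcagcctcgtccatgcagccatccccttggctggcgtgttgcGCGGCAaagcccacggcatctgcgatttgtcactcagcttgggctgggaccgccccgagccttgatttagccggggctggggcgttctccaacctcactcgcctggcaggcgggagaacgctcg

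*Mcts2*, a retrogene in an intron of *H13* with 3 hexamers in its window, held 1015 counts in WT and 472 in TCKO, the lowest of the 15 at −0.39 (−0.54 to −0.23). *Plagl1*, a growth-restraining zinc finger gene, held 953 and 506 counts at its promoter region, a ratio of −0.20 (−0.35 to −0.04). *Snrpn*, whose promoter is part of the control region of its cluster, held 260 and 168 counts (0.09, −0.19 to 0.37), and its whole region held 7 hexamers. *Nap1l5*, a retrogene in *Herc3*, held 204 and 139 counts, the highest of the 15 at 0.16 (−0.15 to 0.47). Of the 15 regions the 3 above 0 (*Grb10*, *Snrpn* and *Nap1l5*) all held the hexamer in the window, as did 3 of the 12 below 0 (*Mcts2*, *Plagl1* and *Impact*). The intervals of those 3 above 0 hold 0. Over the whole region, *Mest*, *Peg10*, *Airn* and *Gnas*, all below 0, held the hexamer as well. A link between hexamer and ratio was not tested.

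The promoters also differed widely in how open they were. In WT the densities ran from 114 counts per kb at *Mkrn3*, within the lowest 0.748% of all promoter regions, to 3024 at *Zim1*, above 98.4% of them, beside a median of 619 over all promoter regions. *Inpp5f* (2781 counts per kb), *Peg3* (2509), *Ube3a* (2368) and *Mcts2* (2063) followed at the open end, and *Snrpn* (286), *Ndn* (371), *Magel2* (392) and *Dlk1* (393) stood at the closed end. In TCKO, scaled, *Mkrn3* had 221 counts per kb and *Magel2* 588, and *Zim1* had 2855. The largest positive ratios, at *Mkrn3* and *Magel2*, thus belonged to promoters of low density. *Dlk1* (189 and 106 counts, −0.12), of like density, lay below 0 with an interval that held 0. The *Ndn* region (49 and 21 counts, −0.49, −1.23 to 0.22) held few of the 675 and 378 counts of that gene. Its low density thus need not be that of the *Ndn* promoter.

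**Figure D3:**
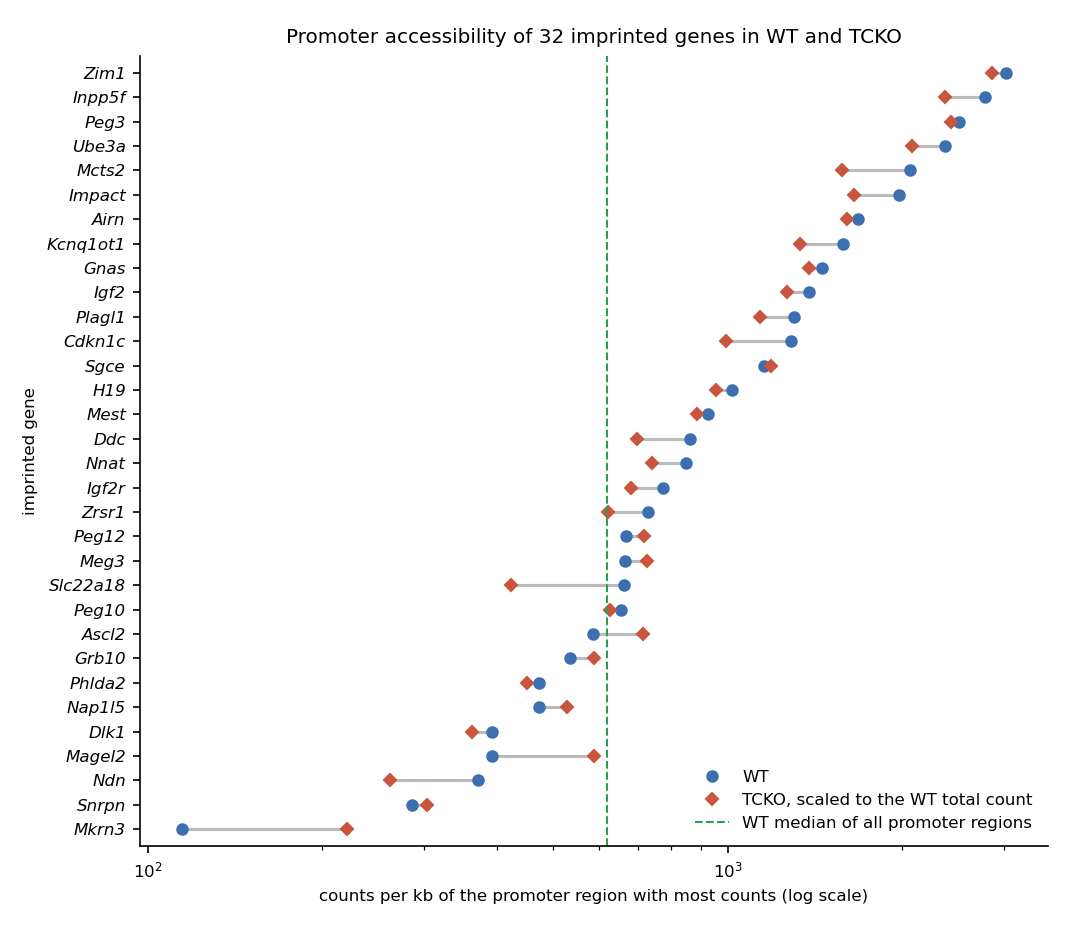
Counts per kb (horizontal log axis) of the promoter region with most counts of each of 32 imprinted genes in WT (circles) and in TCKO scaled to the WT total (diamonds), ordered by the WT value, with the dashed line at the WT median of all promoter regions (619). Grey bars join the genotypes, and most diamonds lie slightly left of their circle, while *Mkrn3* and *Magel2* lie far right of theirs.

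The regions at least 2-fold lower were gathered in 3 large clusters. *Igf2r-Airn*, *Kcnq1* and *Grb10-Ddc* hold 169 of the 280 regions (60.4%) and 18 of the 19 lower ones, and the other 111 regions had 1 lower and 3 higher. Of the 19 lower regions 18 were intronic, as were 172 of all 280. Peaks were called in WT only over 13 of the 19, beside 33.0% of all regions, and a lower TCKO count itself makes such a call likelier. The 19 ranged from 48 to 1598 counts in WT and from 10 to 438 in TCKO. The 8 higher regions were thinner, with 13 to 137 counts in WT and 24 to 170 in TCKO, 5 were called in TCKO only, and they lay in 6 clusters.

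*Igf2r* encodes the receptor that clears IGF2 and is read from the maternal copy, while *Airn*, a noncoding RNA started in an *Igf2r* intron on the opposite strand, is read from the paternal copy and silences its neighbours in cis. The 50 regions of the cluster summed to 17931 WT and 8935 TCKO counts, a ratio of −0.29 (−0.32 to −0.25), the lowest after *Mcts2*. At least 2-fold lower were 7 regions (14.0%) and 1 was higher, beside 4.51% and 12.3% of all regions. The lowest regions were intronic. The *Airn* promoter region at chr17:12741135-12741586, with 759 and 442 counts, had a ratio of −0.06 (−0.23 to 0.11), the 4 regions within 2 kb of the *Airn* start summed to a ratio of −0.14, and the 2 within 2 kb of the *Igf2r* start to 0.07. An intronic region of *Airn* at chr17:12792577-12792815, 51385 bp past its start, held 359 counts in WT against 69 in TCKO (−1.65, −2.03 to −1.29), the lowest of all member regions with at least 100 counts. Its neighbour at chr17:12794002-12794813 held 1598 and 438 counts (−1.15, −1.30 to −1.0), and the region at chr17:12799744-12799921 held 128 and 34 (−1.18). In an *Igf2r* intron chr17:12706487-12707337 held 761 and 159 counts (−1.54, −1.79 to −1.30). Also in *Igf2r* introns lay chr17:12739653-12739795, less than 2 kb before the *Airn* start, with 106 and 25 counts (−1.35, −1.99 to −0.74), and chr17:12766470-12766701, 3078 bp past the *Igf2r* start and within *Airn* too, with 133 and 33 (−1.28, −1.84 to −0.75). Both were called as peaks in WT only. The 1 higher region, chr17:12816679-12816945, held 68 and 88 counts (1.08).

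The *Kcnq1* cluster is silenced on the paternal copy by *Kcnq1ot1*, a noncoding RNA started inside *Kcnq1*. Its 64 regions held 11698 and 6502 counts, a ratio of −0.13 (−0.17 to −0.09). Of them 6 (9.38%) were at least 2-fold lower and 3 higher, beside 4.51% and 12.3% of all regions. The promoter region of *Kcnq1ot1* at chr7:143296094-143297005 held 1440 and 740 counts, a ratio of −0.24 (−0.37 to −0.12). *Cdkn1c*, the cell cycle inhibitor that is read from the maternal copy, held 535 and 249 counts, a ratio of −0.39 (−0.60 to −0.17). *Kcnq1*, a potassium channel gene, held 9711 and 5237 counts (−0.17, −0.22 to −0.13). Beside them *Ascl2*, a transcription factor gene of the placenta, held 712 and 526 counts, a ratio of 0.28 (0.12 to 0.44), and *Phlda2* (346 and 227) and *Slc22a18* (394 and 263) had ratios of 0.11 and 0.13 with intervals that held 0. The 1 region within 2 kb of the *Slc22a18* start was lower, with 90 and 35 counts (−0.64, −1.21 to −0.09). Genes read from the same parental copy thus lay on both sides of 0.

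Inside *Kcnq1* the lower regions with most counts lay in introns towards the 3′ end. At chr7:143407811-143409082 there were 888 counts in WT and 231 in TCKO (−1.22, −1.43 to −1.02), at chr7:143375602-143376449 there were 582 and 151 (−1.23, −1.49 to −0.97), and at chr7:143399788-143400451 there were 492 and 145 (−1.04, −1.31 to −0.78). All 3 were called as peaks in both genotypes. Upstream of them, at chr7:143357143-143357459, stood the highest member region with at least 100 counts, with 78 in WT and 137 in TCKO (1.52, 1.13 to 1.93).

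*Grb10*, an adaptor that damps insulin and growth factor signalling, is read from the maternal copy in most tissues and from the paternal copy in brain, and *Ddc*, which encodes the decarboxylase of dopamine synthesis, adjoins it. *Grb10* held 7847 and 3891 counts over 27 regions, a ratio of −0.29 (−0.35 to −0.24), and 21 of these regions were below 0. Its promoter region with most counts, chr11:12025582-12026547, held 516 and 346 counts (0.14, −0.06 to 0.34), an interval that holds 0. The region centred 1317 bp past its first start, chr11:12037156-12037575, held 262 and 122 (−0.38, −0.69 to −0.08), and the 3 regions within 2 kb of that start summed to −0.20. An intronic region at chr11:11965855-11966110 held 196 and 47 counts (−1.33, −1.80 to −0.89). *Ddc* held 9573 and 5507 counts over 28 regions (−0.08, −0.13 to −0.03) and its regions were mixed. At chr11:11875300-11875513, an exonic region, 137 counts in WT stood against 170 in TCKO (1.02, 0.70 to 1.35). Its introns held chr11:11840837-11841051, with 240 and 239 counts (0.71, 0.45 to 0.97), and chr11:11849556-11849896, with 139 and 138 (0.70, 0.37 to 1.05), each called as a peak in both genotypes.

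**Figure D4:**
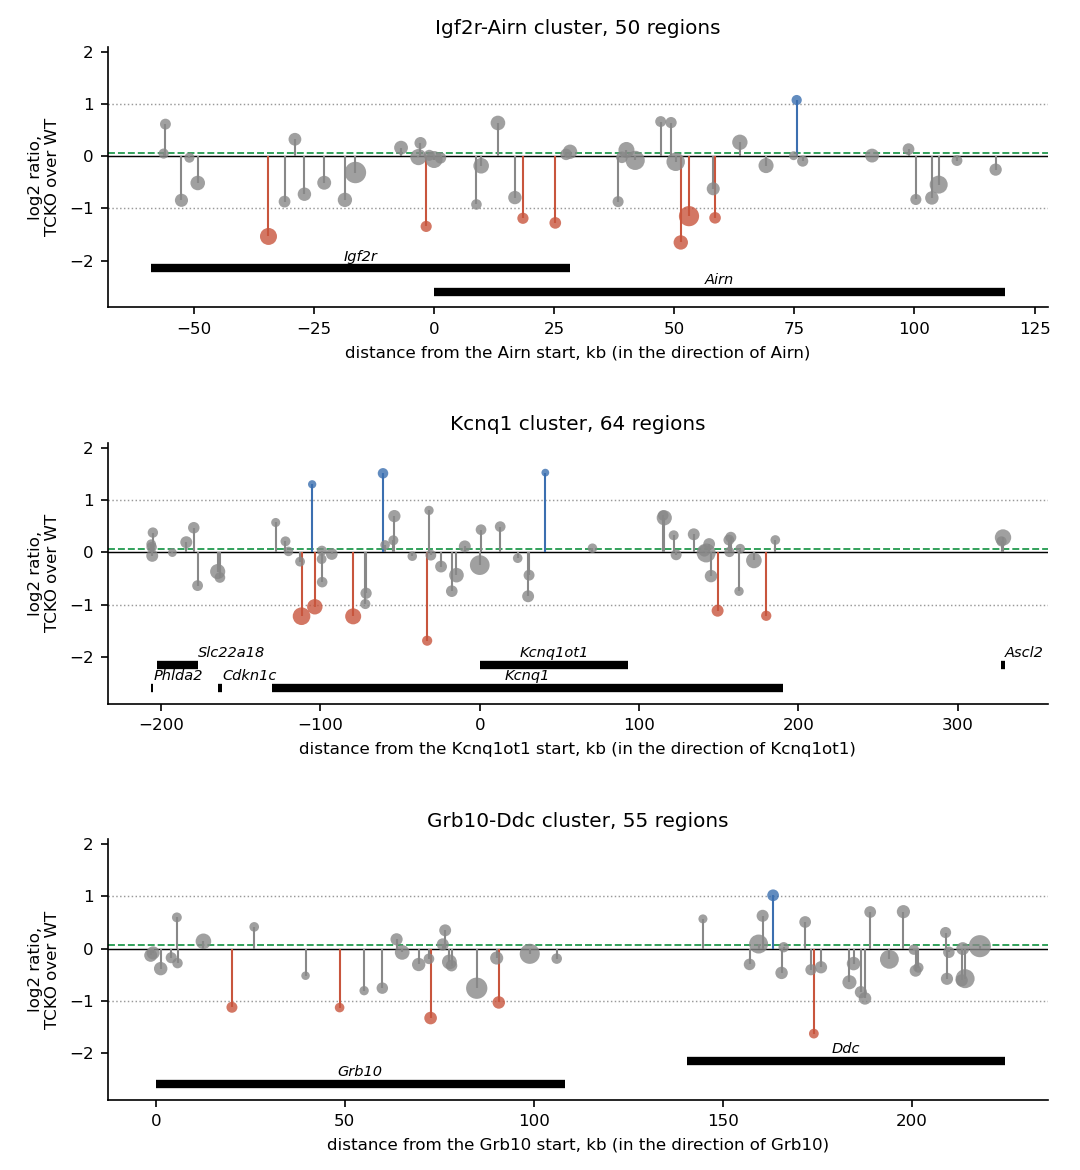
Log2 ratio (vertical axis, TCKO scaled over WT) of each accessible region along 3 imprinted clusters by its distance in kb from the start of *Airn*, *Kcnq1ot1* or *Grb10*, with point area rising with the WT count, black bars for the genes, dotted lines at 2-fold and a dashed line at the median of all regions. Red points are at least 2-fold lower (7, 6 and 5 regions) and blue ones at least 2-fold higher (1, 3 and 1), and the point at the *Airn* start lies close to 0.

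The *Snrpn* cluster, the mouse counterpart of the Prader-Willi and Angelman region, was divided. With total counts 4 of its 5 genes read from the paternal copy lay above 0 and *Ube3a*, a ubiquitin ligase gene read from the maternal copy in neurons, lay below 0. *Magel2*, which takes part in protein sorting, held 301 and 272 counts, a ratio of 0.57 (0.33 to 0.81), the highest of the 34. *Mkrn3*, a brake on puberty, held 117 and 105 counts, a ratio of 0.56 (0.18 to 0.94), and this came from its promoter region chr7:62419332-62419890, with 64 and 75 counts (0.94), while its other region held 53 and 30 (−0.10). *Snrpn* held 415 and 298 counts (0.24, 0.02 to 0.45), *Peg12* 716 and 466 (0.10, −0.07 to 0.27) and *Ndn*, a growth suppressor gene, 675 and 378 (−0.12, −0.30 to 0.06). *Ube3a* held 4121 and 2247 counts (−0.16, −0.23 to −0.08), of which 3910 and 2085 lay in its promoter region. With a loess fit on mean count *Ube3a* turned to 0.03, and *Magel2*, *Mkrn3* and *Snrpn* stayed at 0.52, 0.36 and 0.17. Without scaling these 3 genes were at −0.15, −0.15 and −0.48. Their place above the median of all regions is nearly fixed there, since that scale shifts all regions alike.

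*Peg10-Sgce* was the 1 cluster whose interval lay above 0, with 4060 and 2940 counts (0.25, 0.18 to 0.32). Without scaling it was −0.47 and with the peak caller's background −0.36. Those scales shift all regions alike, so its place above their medians (−0.64 and −0.54) is nearly fixed. *Peg10*, a retrotransposon-derived gene of the placenta, and *Sgce*, which encodes a sarcoglycan, share a promoter that is methylated on the maternal copy. The 3 shared regions there summed to 1260 and 763 counts, a ratio of −0.01 (−0.14 to 0.12). The increase came from the body of *Sgce*. Its exonic region at chr6:4708909-4709439 held 1091 counts in WT and 973 in TCKO (0.55, 0.43 to 0.68), and the intronic region chr6:4733137-4733573 held 185 and 170 (0.59, 0.30 to 0.90).

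In the *Peg3* cluster *Peg3*, a zinc finger gene, held 7001 and 3680 counts, a ratio of −0.21 (−0.27 to −0.15), and *Zim1* held 3315 and 1959 (−0.04, −0.12 to 0.04). Most of the *Peg3* counts lay in chr7:6727395-6729036 in an intron 2215 bp past the start, with 5175 and 2629 (−0.26, −0.33 to −0.19), next to a promoter region with 1006 and 591 (−0.05). After the loess fit the cluster stood at 0.03. In the *Dlk1-Meg3* cluster *Dlk1*, a ligand-like membrane protein gene, held 189 and 106 counts (−0.12, −0.46 to 0.23), *Meg3*, a noncoding RNA gene, 874 and 530 (0.00, −0.16 to 0.15), and *Rtl1*, another retrotransposon-derived gene, 835 and 435 (−0.22, −0.39 to −0.06).

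The control region of *Dlk1-Meg3* lies between these genes and is methylated on the paternal copy. The 10 regions between *Dlk1* and *Meg3* that overlap neither gene summed to 1011 and 508 counts, a ratio of −0.28 (−0.43 to −0.12), and 6 of them were below 0. This rests on 1 region, and the other 9 summed to 706 and 438 counts, a ratio of 0.03 (−0.14 to 0.20). Among them the one with most ZFP57 hexamers, chosen after the values were seen, was chr12:109528236-109528456, centred 12655 bp before *Meg3*. It holds 5 hexamers and 27 CpG in 221 bp, where 0.037% of all regions hold 5 or more hexamers. It is printed on the plus strand, with the hexamers in capitals, from a second cluster marked in sperm. It need not stand for the whole control region.
Region between Dlk1 and Meg3: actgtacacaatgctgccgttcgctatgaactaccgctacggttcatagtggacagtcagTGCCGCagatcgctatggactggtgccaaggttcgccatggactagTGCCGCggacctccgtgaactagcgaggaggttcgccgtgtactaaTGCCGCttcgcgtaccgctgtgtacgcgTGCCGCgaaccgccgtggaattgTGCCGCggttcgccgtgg

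It was covered by 64 WT and 48 TCKO counts, a ratio of 0.30 (−0.23 to 0.84), and was called as a peak in WT only. At these counts no difference could be told. The regions next to it were below 0, with intervals that held 0. Nearer to *Meg3* lay those at 10631 bp (71 and 32 counts, −0.43) and 11622 bp (122 and 62, −0.26) before it. Farther out lay those at 13391 bp (60 and 24, −0.59) and 14730 bp (45 and 26, −0.07). The region on which the sum rests, chr12:109473563-109474022, lies at the other end, 67208 bp before *Meg3*, and held 305 and 70 counts (−1.40, −1.78 to −1.03). Nearer to *Meg3*, 57598 bp before it, chr12:109483352-109483453 went the opposite way, with 8 counts in WT and 25 in TCKO (2.23, 1.24 to 3.48), and was called as a peak in TCKO only.

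The remaining clusters were small and mostly slightly lower. *Gnas*, which encodes a stimulatory G protein and has several starts with different imprints, held 5914 and 3239 counts over 23 regions (−0.15, −0.21 to −0.09), with a ratio of −0.47 (−0.64 to −0.30) at chr2:174343962-174344464 near its 3′ end (909 and 398 counts) and of −0.04 at its first start (276 and 163). *Inpp5f*, a phosphoinositide phosphatase gene, held 5087 and 2767 (−0.16, −0.23 to −0.09). *Mest* held 1215 and 693 (−0.09, −0.23 to 0.04), *Plagl1* 1551 and 894 (−0.08, −0.20 to 0.04), *Nnat* 295 and 159 (−0.17, −0.45 to 0.10), *Zrsr1* 839 and 524 (0.04, −0.12 to 0.20) and *Nap1l5* 254 and 185 (0.26, −0.01 to 0.53). The intervals of these 5 genes hold 0. Within *Plagl1* an intronic region at chr10:13080315-13080605 had 109 and 112 counts and stood at 0.75 (0.38 to 1.14), among the highest member regions with at least 100 counts.

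*Impact*, which inhibits the kinase GCN2, held 4058 and 2240 counts, a ratio of −0.14 (−0.21 to −0.07) that turned to 0.01 after the loess fit. Its regions went opposite ways. The one at its first start held 349 and 339 counts, a ratio of 0.67 (0.46 to 0.89), and the largest one, 17876 bp downstream in its differentially methylated part, held 3367 and 1713 (−0.26, −0.34 to −0.17).

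Genes read from either parental copy lay on both sides of 0. The 20 genes listed as read from the paternal copy had 13 loci below 0 and a median of −0.09. The 9 listed as read from the maternal copy had 6 below 0 and a median of −0.04. *Grb10* (−0.29), *Ddc*, *Ube3a*, *Gnas* and *Inpp5f* were in neither list. The 2 lists share regions, since all 8 regions of *Kcnq1ot1* are also regions of *Kcnq1*, and *Igf2r* and *Airn* share 12. A list of 38 other imprinted genes, outside the 34, had 15 loci below 0, a median of 0.04, none at least 2-fold lower and 1 higher, *Zim3* (113 and 148 counts, 1.10), and the lowest was *H13* (−0.28). Of 12 genes that make, read or keep imprints, from *Dnmt1* and *Uhrf1* to *Zfp57*, *Trim28* and *Ctcf*, 5 were below 0, the median was 0.09, and the range ran from −0.23 at *Dnmt3l* to 0.31 at *Dppa3*. The 511 regions of the 38 other genes had a median of 0.00, and the difference between these lists was not tested.

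The level of the clusters depended on the scale. With total counts 14 of the 17 clusters were below 0, 9 of them with the whole interval. The range ran from −0.39 at *Mcts2* to 0.26 at *Nap1l5*. With TMM and with DESeq2 size factors 15 were below 0, with the loess fit 12, with the median of GC bins removed 13, and without scaling or with the peak caller's background all 17. The loess fit turned the sign of *Peg3*, *Snrpn*, *Impact* and *Zrsr1*, and the GC bins turned *H19-Igf2*. Below 0 under all 7 scales were 10 of the 17 clusters, which were *Mcts2*, *Igf2r-Airn*, *Grb10-Ddc*, *Kcnq1*, *Mest*, *Plagl1*, *Dlk1-Meg3*, *Gnas*, *Nnat* and *Inpp5f*.

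**Figure D5:**
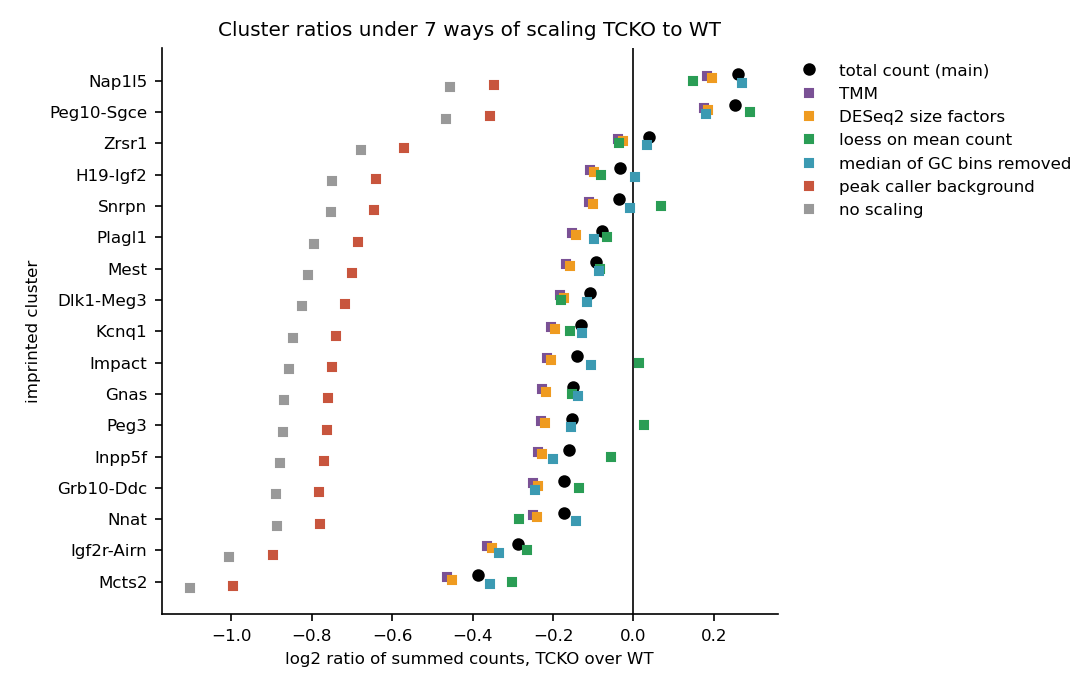
Log2 ratio of summed counts (horizontal axis) of each of the 17 imprinted clusters under 7 ways of scaling TCKO to WT, ordered by the ratio with total counts (black circles). The total count, TMM, DESeq2, loess and GC values lie close together for most clusters, and the peak caller's background (red) and no scaling (grey) move every cluster below 0.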

How the data were processed

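ATAC-seq of WT and TCKO osteoblasts was analysed from the deposited tables. Per the study's methods and the labels' processing notes, the authors aligned reads to GRCm38 with STAR 2.7.0e, kept unique alignments, merged the replicates and called peaks with MACS2. The authors deposited raw read counts per region with 1 merged column per genotype, and no other sample column was left aside (0). The deposited peak lists gave the fold (ratio of the pileup at each summit to the background around it) and a −log10 p-value, used to tell which genotype a region was called in and to recover the caller's background. Removal of duplicate or mitochondrial reads and a shift for the transposase were not stated, and repeated reads would narrow the counting intervals.

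Genes came from GENCODE M21, and sequences from the RefSeq GRCm38.p6 genome, of the same build (samtools 1.23.1, pysam 0.24.0). Regions were assigned with an overlap of at least 1 bp, promoters had a midpoint within 1 kb of a transcript start, and coordinates count from 1. Member genes, clusters, lists, motifs and alternatives were chosen with earlier results of these data known. All 34 members were named, with the promoter region holding most counts, the 5 lowest and 5 highest regions with at least 100 counts, and the region nearest before *H19* with CTCF matches. Other regions named were chosen after their values were seen. With 1 column per genotype no test was made. Alternative scales were TMM (edgeR 4.0.16, R 4.3.3), size factors of DESeq2 1.42.0, no scaling, the peak caller's background (1.98 reads over fragments of 98 bp in WT, 1.91 over 102 bp in TCKO, a factor of 1.08), a loess fit (statsmodels 0.14.6, span 0.3) and medians of 20 GC bins. Steps were tested on simulated data. Calculations used Python 3.11.15, numpy 2.4.6 and pandas 2.3.3.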

Additional observations from a re-analysis of the deposited data

How the results depend on the processing

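No replicate could be left out, because each genotype is 1 merged column. No paired analysis was possible because the columns carry no replicate. The number of member regions at least 2-fold lower, 19, was 89 without scaling, 72 with the peak caller's background, 52 at a fold of 1.5, 3 at a fold of 3, 3 where the whole interval had to pass the fold, 6 among regions with a summit in both lists and 1 within 2 kb of a start. The number at least 2-fold higher, 8, was 0 without scaling, with the peak caller's background, within 2 kb of a start and at a fold of 3, 1 by the interval, 3 with a summit in both lists, 4 with loess, 5 with 10 counts added, 23 within 25 kb of the genes and 30 at a fold of 1.5. The shares of all regions without scaling and with the peak caller's background are given above. For the other settings no share of all regions is given, so those counts cannot be set against a background. The median ratio of the member regions was −0.16 with TMM, −0.15 with DESeq2 size factors, −0.80 without scaling, −0.69 with the peak caller's background and −0.16 with loess. Relative to all regions, which were not limited to genes, it was −0.090 with GC bins and between −0.13 and −0.18 otherwise. Scales that apply the same factor to all regions could hardly change this value. Loci below 0 numbered 19 (of 29 with such a region, within 2 kb of the start) to 34.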
